A study of Mus musculus with 9 samples.

Results

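Dopamine and noradrenaline act on the cortex through a set of G protein-coupled receptors, of which 10 genes were examined here in the medial prefrontal cortex of mice: the dopamine receptors Drd1, Drd2, Drd4 and Drd5, the alpha-1 adrenergic receptors Adra1a, Adra1b and Adra1d, the alpha-2 adrenergic receptors Adra2a and Adra2c, and the beta adrenergic receptor Adrb1. They were taken by gene symbol and are 10 of the 35125 genes with an NCBI gene identifier in the deposited table. Polyadenylated RNA of the tissue was sequenced in 9 libraries, 3 in each of 3 groups. The control group was not stressed. The CUS model received chronic unpredictable stress, a procedure used in mice to model depression. The running model is labelled exercise, in a series that set out to study running in CUS mice. All 9 libraries carry the terms 4week and week8, whose meaning is not given in the sources used here, and neither are strain, sex or age. No label ties a library to an animal of its own, so p-values reflect only how far these libraries scatter, and that scatter may be technical. Replicate numbers follow the order of listing and pair nothing across groups.

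Drd1 and Drd5 encode the D1-like receptors, which couple to stimulatory G proteins and raise cyclic AMP, whereas Drd2 and Drd4 encode D2-like receptors, which couple to inhibitory G proteins and lower it. Alpha-1 receptors couple to Gq and phospholipase C, alpha-2 receptors to inhibitory G proteins, and beta receptors to stimulatory ones. In the prefrontal cortex these receptors are known for their part in working memory, arousal and the response to stress. Dopamine reaches this cortex in axons of the ventral tegmental area and noradrenaline in axons of the locus coeruleus. The cell bodies of those axons lie elsewhere, so autoreceptors on the axons are made from transcripts outside the dissected tissue.

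Promoter windows from RefSeq, on the GRCm38.p6 build and reaching from 250 bases before to 50 bases after an annotated start, were found for 8 of the 10 genes, and Adra1a and Adra1d were not matched. Both strands were searched for TGACG, the core of a cyclic AMP response element that the full palindrome TGACGTCA contains, for the GC box GGGCGG, for AGAACA, part of a steroid receptor element, and for TATAAA. The 150 bases before the start are shown for Adrb1, whose window held a TGACG match, and for both annotated starts of Adra1b, whose windows differed most in base composition. They read 5′ to 3′ on the strand of the gene, and capitals mark a TGACG or GGGCGG match on either strand.
Adrb1, chr19:56721967-56722116, plus strand: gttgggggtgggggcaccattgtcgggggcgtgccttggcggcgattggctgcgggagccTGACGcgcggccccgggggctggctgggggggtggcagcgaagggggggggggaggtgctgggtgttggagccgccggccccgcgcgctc
Adra1b, upstream start, chr11:43901238-43901387, minus strand: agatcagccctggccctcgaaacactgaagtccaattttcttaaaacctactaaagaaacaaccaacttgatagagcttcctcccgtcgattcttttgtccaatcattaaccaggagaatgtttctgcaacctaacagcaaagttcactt
Adra1b, downstream start, chr11:43836490-43836639, minus strand: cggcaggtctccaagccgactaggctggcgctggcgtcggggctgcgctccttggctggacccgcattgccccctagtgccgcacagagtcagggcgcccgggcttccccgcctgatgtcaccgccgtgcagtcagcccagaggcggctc
The Adrb1 stretch held 78.7% G and C. The upstream Adra1b stretch held 41.3% and the downstream one 72.0%.

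TGACG was found in the windows of Adra2a and Adrb1, with 1 match each, and in 20.8% of all 32851 promoter windows of the same length. None of the member windows held TGACGTCA, which 1.79% of all windows held, or AGAACA, which 19.0% held. A GC box was found in the windows of Drd1 (1 match at each of its starts), Drd2 (2), Drd4 (3), Drd5 (2), Adra2a (1), Adrb1 (1) and the downstream start of Adra1b (2), against 35.7% of all windows. TATAAA was found in the Adra2a window alone among the members, against 13.6% of all windows. The windows of Adra2c and of the upstream Adra1b start held none of these letters. The median window had 52.7% G and C, and the member windows ran from 42.3% at the upstream Adra1b start and 51.3% at Adra2c to 72.3% at Adrb1. These matches describe letters only, and which Adra1b start was used in this tissue was not tested.

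The values are FPKM, fragments scaled to transcript length and to the mapped fragments of the library, so they may be compared between genes per unit length. The number of fragments behind them is unknown. Their sum per library was 370441 to 393663 in 8 libraries and 423257 in CUS 3, and 17071 to 17280 genes were above 0. The 10 endothelial and mural cell markers summed to 61.4 FPKM in CUS 3, 65.7 in running 3 and 66.7 in running 1, against 84.5 to 93.1 in the other 6 libraries. Control 3 stood apart in mature oligodendrocyte markers (1207 FPKM, against 495 to 725) and in the choroid plexus transcript Ttr (212.18 FPKM, against 5.65 to 38.81). All 11 deep-layer and all 10 upper-layer projection neuron markers passed the filter on low values, set at 0.5 FPKM or more in 3 or more of the 9 libraries. Of 8 markers of midbrain dopamine or locus coeruleus cell bodies, only Th, the rate-limiting enzyme of catecholamine synthesis, passed it. Slc6a3, the dopamine transporter, was at most 0.1 FPKM in any library, and Slc6a2, the noradrenaline transporter, at most 0.06 FPKM.

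As sums over the member genes, adrenergic receptor transcripts were higher than dopamine receptor transcripts in every library. The 6 adrenergic genes summed to 49.5 to 61.0 FPKM and the 4 dopamine receptor genes to 4.72 to 7.22 FPKM. By their mean over the 9 libraries the order was Adra1d (20.3 FPKM), Adrb1 (12.8), Adra1b (10.1), Adra2c (5.88), Adra1a (4.04), Adra2a (3.57), Drd1 (3.48), Drd5 (1.45), Drd2 (0.956) and Drd4 (0.416). Adra1d lay above Adrb1, Adrb1 above Adra1b, Adra1b above Adra2c, and Adra2c above Adra1a in 9 of 9 libraries. Drd1 also lay above Drd5 in 9 of 9. The order of Adra1a over Adra2a held in 7 libraries and that of Adra2a over Drd1 in 5, so these 3 neighbours were not separated beyond their spread. Drd5 lay above Drd2 in 8 libraries and Drd2 above Drd4 in 9, although the ranges over all libraries overlapped for both pairs.

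**Figure D1:**
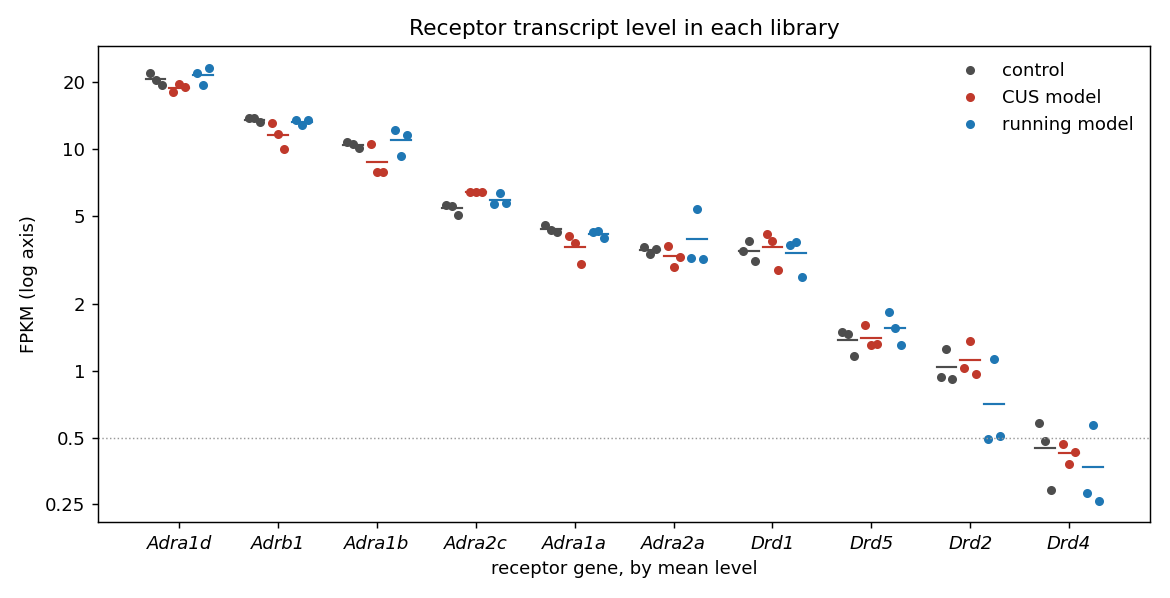
FPKM (log axis) of the 10 receptor genes in each of the 9 libraries, ordered by mean level; points are libraries in the order 1 to 3, horizontal bars are means of 3 libraries, and the dotted line is the filter level of 0.5 FPKM. Adra1d lies between 17.92 and 23.19 FPKM in all libraries, and only Drd4 has most of its points below the line.

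The comparisons asked how stress and running bear on these transcripts. Differences were tested with limma on log2(FPKM + 0.5) over the 14013 genes that passed the filter, with Benjamini-Hochberg adjustment over all of them and a threshold of 0.05. Of the 10 receptors 9 passed the filter and Drd4 did not. None of the 9 passed the adjusted threshold in any of the 3 comparisons. Few genes did at all: 0.00714% of those tested for the CUS model against control, 0.00714% for the running model against the CUS model, and 0.0214% for the running model against control, which are 1, 1 and 3 genes. The 3 comparisons share their libraries in pairs, so the values of each are given side by side only. In bulk tissue, fewer cells of a type and less RNA per cell cannot be told apart.

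At an unadjusted p below 0.05, Adra2c was higher and Adra1a and Adrb1 were lower in the CUS model than in control, where 8.90% of all tested genes were higher and 5.79% lower by the same rule. The same 3 genes were the ones whose CUS and control libraries did not overlap, which 12.1% of tested genes did upwards and 7.60% downwards. Against the CUS model, Adra1b, Adra1d and Adrb1 were higher and Drd2 was lower in the running model at an unadjusted p below 0.05, beside 7.74% of tested genes higher and 15.7% lower. Adra2c alone did not overlap between these groups, on the lower side, where 15.9% of tested genes did not overlap, and no member did on the higher side, where 8.99% did not. For the running model against control no receptor reached an unadjusted p below 0.05, beside 5.15% of tested genes higher and 6.47% lower. Adra2c did not overlap on the higher side there, beside 10.5% of tested genes, and no member did on the lower side, beside 11.9%. Counts of 1 to 3 among the 9 receptors are to be read beside these shares of all genes. The median log2 difference of the 9 receptors was -0.09 for CUS against control (0.02 over all tested genes), 0.18 for running against CUS (-0.03) and 0.06 for running against control (-0.02).

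**Figure D2:**
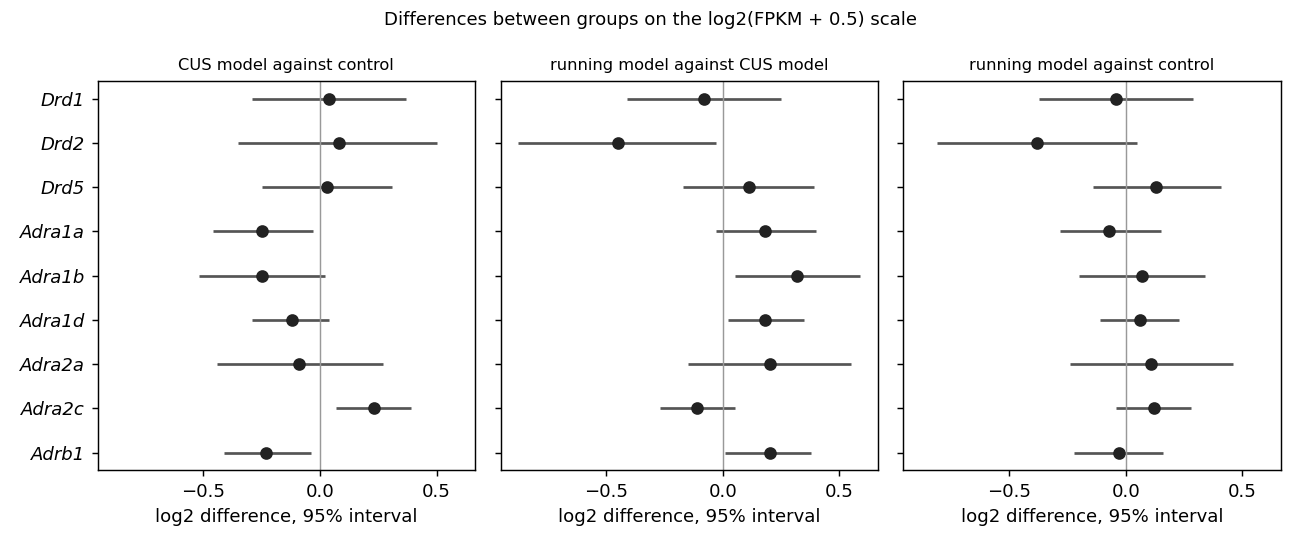
Log2 differences on the log2(FPKM + 0.5) scale for the 9 tested receptors in the 3 comparisons; points are limma estimates from 3 libraries a group and lines are 95% intervals, not adjusted for the number of genes. The intervals of Adra1a, Adrb1 and Adra2c exclude 0 for CUS against control, and those of Adra1b, Adra1d, Adrb1 and Drd2 for running against CUS.

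The alpha-1 receptors had lower means in the CUS model than in the other groups, with no call. Several cell type lists also lay lower in CUS than in control, with no call: mature oligodendrocytes in 9 of 10 genes (median log2 difference -0.47), striatal projection neurons in 8 of 10 (-0.28), endothelial and mural cells in 9 of 10 (-0.22) and astrocytes in 9 of 10 (-0.09). Smaller majorities were lower among oligodendrocyte precursor markers (6 of 8, -0.16) and upper-layer neuron markers (6 of 10, -0.09). The same held for inhibitory neuron (7 of 11, -0.08) and deep-layer neuron markers (7 of 11, -0.03). The 2 tested choroid plexus markers were lower as well (-0.15). Of all 14013 tested genes, 6182 were lower. Microglial markers went the other way, higher in 8 of 8 genes (0.08). The oligodendrocyte sum was 1207 FPKM in control 3, against 650 in control 1, 694 in control 2 and 725 in CUS 1. The striatal list was highest in control 2, at a mean log2 of 0.32 relative to the 9 libraries. The part of these cell types in the receptor values was not tested. Adra1a, a Gq-coupled receptor of cortical neurons, was at 4.52, 4.31 and 4.23 FPKM in the controls, 4.04, 3.77 and 3.03 in the CUS libraries, and 4.21, 4.26 and 3.95 in the running libraries. All 3 CUS libraries lay below all 3 controls, while running 3 lay within the CUS range. The log2 difference of CUS against control was -0.25 ± 0.0972 (SE), with a 95% interval of -0.46 to -0.03, an unadjusted p of 0.0283 and an adjusted p of 0.307. Without CUS 3, the lowest library, it was -0.14. Running against CUS gave 0.18 (interval -0.03 to 0.4, adjusted p = 0.281) and 0.08 without CUS 3.

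Adra1b, a Gq-coupled receptor widely present in cortex, was at 10.68, 10.49 and 10.07 FPKM in the controls, 10.55, 7.83 and 7.86 in the CUS libraries, and 12.2, 9.27 and 11.52 in the running libraries. CUS 1 lay at the level of the controls and CUS 2 and CUS 3 below every other library. The log2 difference was -0.25 ± 0.122 (SE; interval -0.52 to 0.02, adjusted p = 0.357) for CUS against control, and 0.32 ± 0.122 (interval 0.05 to 0.59, unadjusted p = 0.0248, adjusted p = 0.155) for running against CUS. The first of these was -0.39 without CUS 1 and -0.18 without CUS 2. Adra1d, the most abundant of the 10 transcripts, was at 21.98, 20.3 and 19.36 FPKM in the controls, 17.92, 19.52 and 18.96 in the CUS libraries, and 21.86, 19.39 and 23.19 in the running libraries. CUS 2 lay above control 3 and above running 2, so the groups overlapped. The log2 difference was -0.12 (interval -0.29 to 0.04, adjusted p = 0.434) for CUS against control and 0.18 (interval 0.02 to 0.35, unadjusted p = 0.0348, adjusted p = 0.18) for running against CUS. Without control 1 the former was -0.08. Summed, the 3 alpha-1 transcripts came to 33.7 to 37.2 FPKM in control, 29.9 to 32.5 in CUS and 32.9 to 38.7 in running libraries. The sums of the CUS libraries lay below those of all 6 others, narrowly so for CUS 1 (32.5) against running 2 (32.9). Adra1d, which overlapped between the groups, was the largest part of each sum. The alpha-2 transcripts summed to 8.55 to 9.19 FPKM in control, 9.3 to 10.0 in CUS and 8.84 to 11.7 in running libraries. No share of all genes is available for such sums.

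Adra2c, an inhibitory receptor that also acts as an autoreceptor, was the receptor whose mean was higher in the CUS model with no overlap. It was at 5.57, 5.54 and 5.03 FPKM in the controls, 6.36, 6.38 and 6.4 in the CUS libraries, and 5.61, 6.3 and 5.7 in the running libraries. The CUS libraries had a standard deviation of 0.02 FPKM, and all 3 running libraries lay between the highest control and the lowest CUS library. The log2 difference of CUS against control was 0.23 ± 0.0724 (SE; interval 0.07 to 0.39), with an unadjusted p of 0.00959 and an adjusted p of 0.267. Running differed from CUS by -0.11 (interval -0.27 to 0.05, adjusted p = 0.369) and from control by 0.12 (interval -0.04 to 0.28, adjusted p = 0.571). Without CUS 3 the difference of CUS against control was again 0.23.

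Adra2a, the other alpha-2 receptor and the target of guanfacine, was at 3.62, 3.36 and 3.52 FPKM in the controls, 3.66, 2.92 and 3.24 in the CUS libraries, and 3.23, 5.36 and 3.18 in the running libraries. Running 2 stood above the other 8 libraries, which lay between 2.92 and 3.66 FPKM, and running 1 and 3 lay within the CUS range. The log2 difference was 0.2 (interval -0.15 to 0.55, adjusted p = 0.476) for running against CUS and 0.11 (interval -0.24 to 0.46, adjusted p = 0.824) for running against control. Without running 2 these became -0.02 and -0.11. For CUS against control the difference was -0.09 (interval -0.44 to 0.27, adjusted p = 0.795).

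Adrb1, the stimulatory beta receptor that predominates in cortex, was at 13.7, 13.72 and 13.16 FPKM in the controls, 13.02, 11.64 and 9.99 in the CUS libraries, and 13.46, 12.78 and 13.45 in the running libraries. Every CUS library lay below every control, although CUS 1 was close to control 3 and lay above running 2. The log2 difference of CUS against control was -0.23 ± 0.0848 (SE; interval -0.41 to -0.04, unadjusted p = 0.0222, adjusted p = 0.294), and -0.13 without CUS 3. Running against CUS gave 0.2 (interval 0.01 to 0.38, unadjusted p = 0.0421, adjusted p = 0.197), and 0.1 without CUS 3. Running and control differed by -0.03 (interval -0.22 to 0.16, adjusted p = 0.914). For these receptors the library with the lowest Adra1a and Adrb1, CUS 3, was also the one with the highest FPKM sum. Its endothelial and mural marker sum was low as well. That marker sum was also low in running 1 (66.7 FPKM) and running 3 (65.7 FPKM). There Adrb1 was at 13.46 and 13.45 FPKM and Adra1a at 4.21 and 3.95 FPKM. The part of either sum in these values was not tested.

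Without CUS 3, the members at an unadjusted p below 0.05 for CUS against control were 1 higher and 0 lower, in place of 1 and 2. For running against CUS they were 1 higher (Adra1d) and 1 lower, in place of 3 and 1. Leaving out control 1 or control 2 also left 1 higher and 0 lower for CUS against control. Without CUS 1, or without running 2, that comparison had 1 higher and 3 lower (Adra1a, Adra1b and Adrb1). Leaving out running 1 or running 3 left 0 and 0 for running against CUS, leaving out CUS 2 left 1 (Adra1d) and 0, and leaving out CUS 1 left 3 (Adra1a, Adra1b and Adrb1) and 0. Drd2 was also no longer among them when the length and GC trend was removed, and fitting these 2 groups alone left 2 higher (Adra1b and Adra1d) and 0 lower. For running against control, leaving out running 2 gave 1 lower (Drd2) in place of 0. Rescaling each library to TPM, which sets its sum to a fixed total, gave 0 higher and 4 lower receptors for CUS against control (Adra1a, Adra1b, Adra1d and Adrb1) and 4 higher and 0 lower for running against CUS (the same 4). Under TPM the median of all genes moved the same way, to -0.041 and to 0.062. The shares of all tested genes under these alternatives are not given here, so the counts cannot be read as a result about the receptors.

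The dopamine receptors were low and showed no call. Drd1, the main D1-like receptor, was at 3.45, 3.82 and 3.12 FPKM in the controls, 4.12, 3.85 and 2.83 in the CUS libraries, and 3.69, 3.79 and 2.64 in the running libraries. CUS 3 and running 3 lay below every other library. The log2 difference was 0.04 (interval -0.29 to 0.37, adjusted p = 0.914) for CUS against control, -0.08 (interval -0.41 to 0.25, adjusted p = 0.774) for running against CUS, and -0.04 (interval -0.37 to 0.29, adjusted p = 0.936) for running against control. Drd5, the other D1-like receptor, was at 1.5, 1.46 and 1.17 FPKM in the controls, 1.6, 1.31 and 1.32 in the CUS libraries, and 1.83, 1.55 and 1.31 in the running libraries. Its groups overlapped in all comparisons, with log2 differences of 0.03 (interval -0.25 to 0.31), 0.11 (interval -0.17 to 0.39) and 0.13 (interval -0.14 to 0.41) in the same order and adjusted p of 0.93, 0.638 and 0.718.

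Drd2, the D2-like receptor that antipsychotic drugs block, was at 0.94, 1.25 and 0.92 FPKM in the controls, 1.03, 1.36 and 0.97 in the CUS libraries, and 0.49, 1.13 and 0.51 in the running libraries. Running 1 and running 3 lay below all other libraries, at the level of the filter, while running 2 lay inside the range of both other groups. The log2 difference of running against CUS was -0.45 ± 0.193 (SE; interval -0.88 to -0.03, unadjusted p = 0.0395, adjusted p = 0.19). It was -0.69 without running 2, -0.33 without running 1 and -0.34 without running 3. Against control it was -0.38 (interval -0.81 to 0.05, adjusted p = 0.479), with -0.61 without running 2 and -0.25 without running 1. The endothelial and mural markers were also low in running 1 and running 3. Their sum was lowest in CUS 3 (61.4 FPKM), where Drd2 was at 0.97 FPKM, within the control range. The part of these markers in the Drd2 values was not tested. CUS against control gave 0.08 (interval -0.35 to 0.5, adjusted p = 0.864). Drd4, a D2-like receptor described mainly in prefrontal cortex, was at 0.58, 0.48 and 0.29 FPKM in the controls, 0.47, 0.38 and 0.43 in the CUS libraries, and 0.28, 0.57 and 0.26 in the running libraries. Only 2 of its 9 values reached 0.5 FPKM, and the groups overlapped.

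Drd1 and Drd2 are at their highest in striatal projection neurons, which lie below this cortex, and Drd1 is also made in deep-layer cortical neurons, so both marker lists were set beside them. Of 14 striatal markers 10 passed the filter and Six3, Isl1, Serpina9 and Drd3 did not. The list summed to 143 to 165 FPKM in control, 127 to 143 in CUS and 140 to 150 in running libraries. Its list mean, expressed as for the genes as log2 relative to the mean of the 9 libraries, was highest in control 2 (0.32) and lay between -0.14 and 0.07 in the other libraries. The 11 deep-layer markers summed to 235 to 256 FPKM in control, 235 to 288 in CUS and 181 to 250 in running libraries. Their list mean was 0.31 in CUS 1, -0.2 in CUS 3 and -0.37 in running 3, where Drd1 was at 0.23, -0.25 and -0.33. The signs were opposite in control 3 (list 0.09, Drd1 -0.13) and in running 2 (list -0.14, Drd1 0.12). The deep-layer markers did not all move together in CUS 3. Syt6 was at 4.29 FPKM there (controls 6.52 to 7.32) and Tle4 at 7.99 (controls 12.26 to 14.33). Rprm, Tbr1, Foxp2, Ccn2 and Nxph4 also lay below every control in that library. Crym was at 89.83 (controls 71.28 to 79.87) and Fezf2 at 32.8 (controls 30.08 to 31.18). Pou3f1 likewise lay above every control, and Bcl11b lay within the control range. For running against CUS all 11 deep-layer markers had a negative log2 difference, with a median of -0.22 and no call. Of all 14013 tested genes, 8098 had a negative difference there. Drd2 was at -0.53 in running 1, where the deep-layer list was at 0.02 and the striatal list at -0.06, and at -0.5 in running 3, where both lists were at their lowest (-0.37 and -0.14). The part of either cell type in the receptor values was not tested.

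**Figure D3:**
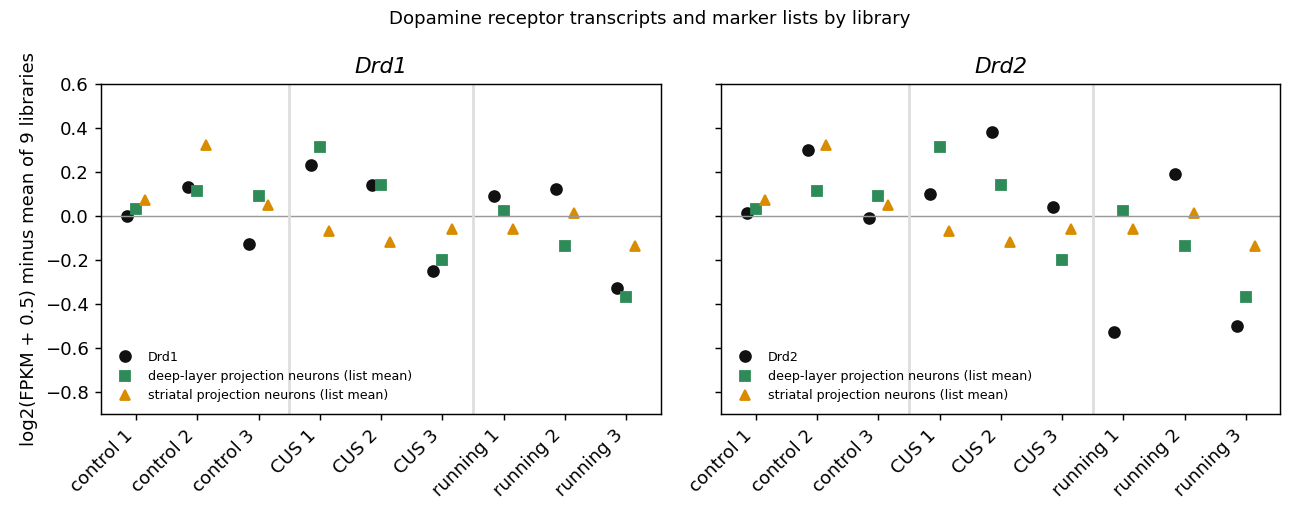
Drd1 (left) and Drd2 (right), with the mean of 11 deep-layer and of 10 striatal projection neuron markers, as log2(FPKM + 0.5) minus the mean of the 9 libraries, in each library; circles are the receptor, squares and triangles the lists. Drd1 and the deep-layer list are both at their lowest in CUS 3 and running 3, but lie on opposite sides of 0 in control 3 and running 2. Drd2 is at its lowest in running 1 and running 3.

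Among further receptors of both families, Drd3 was listed at 0 in 6 libraries and at most at 0.02 FPKM, and Adra2b was at 0.02 to 0.11 FPKM. Both stayed below the filter. Adrb3, the beta receptor best known from adipose tissue, was at 1.89, 2.04 and 1.87 FPKM in the controls, 1.58, 1.63 and 1.46 in the CUS libraries, and 1.19, 1.35 and 0.91 in the running libraries. None of its 3 groups overlapped another, with control highest and running lowest. Of all tested genes, 7.60% were lower without overlap for CUS against control and 15.9% for running against CUS. For running against control 11.9% were. The share with all 3 groups apart is not given here. The log2 difference was -0.24 (adjusted p = 0.35) for CUS against control, -0.33 (adjusted p = 0.132) for running against CUS, and -0.57 ± 0.114 (SE; interval -0.82 to -0.32, adjusted p = 0.114) for running against control.

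Genes that supply and remove the transmitters, carry the receptor signal or switch it off were listed from textbook pathways, and none passed the adjusted threshold in any comparison. Their splits are to be read beside those of all 14013 tested genes. These were 7831 higher and 6182 lower for CUS against control, and 5914 and 8098 for running against CUS. For running against control they were 6142 and 7871. For synthesis, transport and breakdown, 12 of 16 genes passed the filter. Th was at 2.03, 2.08 and 2.03 FPKM in the controls, 2.11, 1.56 and 1.26 in CUS libraries and 1.7, 1.61 and 1.06 in running libraries, with a log2 difference of -0.4 for running against control (adjusted p = 0.391). Between CUS and control 4 of the 12 were higher and 8 lower (median -0.09), and the smallest p belonged to the aldehyde dehydrogenases Aldh2 (-0.21, adjusted p = 0.26) and Aldh1a1 (-0.31, adjusted p = 0.308) and the monoamine transporter Slc29a4 (0.38, adjusted p = 0.267). Between running and CUS 6 were higher and 6 lower, led by Aldh1a1 (0.27, adjusted p = 0.218), the extraneuronal transporter Slc22a3 (0.28, adjusted p = 0.264) and the monoamine oxidase Maoa (-0.1, adjusted p = 0.377). Between running and control 5 were higher and 7 lower (median -0.06), led by Slc29a4 (0.41, adjusted p = 0.275), Th and Aldh2 (-0.13, adjusted p = 0.439).

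All 23 listed G protein, cyclase and phospholipase genes passed the filter. For CUS against control 12 were higher and 11 lower (median 0.01), led by the phospholipases Plcb1 (30.7 FPKM in control and 26.0 in CUS, -0.24, adjusted p = 0.26) and Plcb4 (-0.22, adjusted p = 0.26), which act below alpha-1 receptors, and the Gq-family subunit Gna11 (0.13, adjusted p = 0.295). For running against CUS 14 were higher and 9 lower (median 0.04), led by the cyclase Adcy9 (16.1 FPKM in CUS and 20.0 in running, 0.31, adjusted p = 0.0858), Plcb1 (0.27, adjusted p = 0.0861) and the stimulatory subunit Gnal (0.21, adjusted p = 0.0924). For running against control 14 were higher and 9 lower (median 0.02), led by Adcy9 (0.2, adjusted p = 0.364) and the inhibitory subunits Gnai3 (0.24, adjusted p = 0.395) and Gnaz (0.14, adjusted p = 0.455).

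Of the 16 genes for protein kinase A, its anchors and its substrates, 11 were higher and 5 lower for CUS against control (median 0.03), led by the phosphatase inhibitor Ppp1r1a (0.13, adjusted p = 0.333), the anchor Akap12 (-0.3, adjusted p = 0.348) and the transcription factor Creb1 (0.17, adjusted p = 0.349). For running against CUS 7 were higher and 9 lower (median -0.02), led by Ppp1r1a (81.2 FPKM in CUS and 67.9 in running, -0.26, adjusted p = 0.0776), the anchor Akap5 (14.7 and 19.0 FPKM, 0.36, adjusted p = 0.0776) and the kinase inhibitor Pkib (-0.27, adjusted p = 0.172). For running against control 8 were higher and 8 lower (median 0.01), led by Akap5 (0.23, adjusted p = 0.326), Creb1 (0.19, adjusted p = 0.408) and Pkib (-0.24, adjusted p = 0.432). The 19 genes of desensitisation and trafficking had 9 higher and 10 lower for CUS against control (median -0.01), led by the G protein regulators Rgs16 (-0.35, adjusted p = 0.267), Rgs14 (0.2, adjusted p = 0.289) and Rgs8 (-0.26, adjusted p = 0.294). For running against CUS the split was again 9 and 10, led by Caly, which encodes a D1 receptor-interacting protein (182 FPKM in CUS and 143 in running, -0.34, adjusted p = 0.0776), Rgs8 (0.33, adjusted p = 0.101) and Rgs16 (0.32, adjusted p = 0.145). For running against control it was 7 and 12 (median -0.02), led by Rgs9 (-0.33, adjusted p = 0.344), the receptor kinase Grk5 (0.2, adjusted p = 0.455) and Caly (-0.14, adjusted p = 0.52). Rgs9 also stands in the striatal list.

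**Figure D4:**
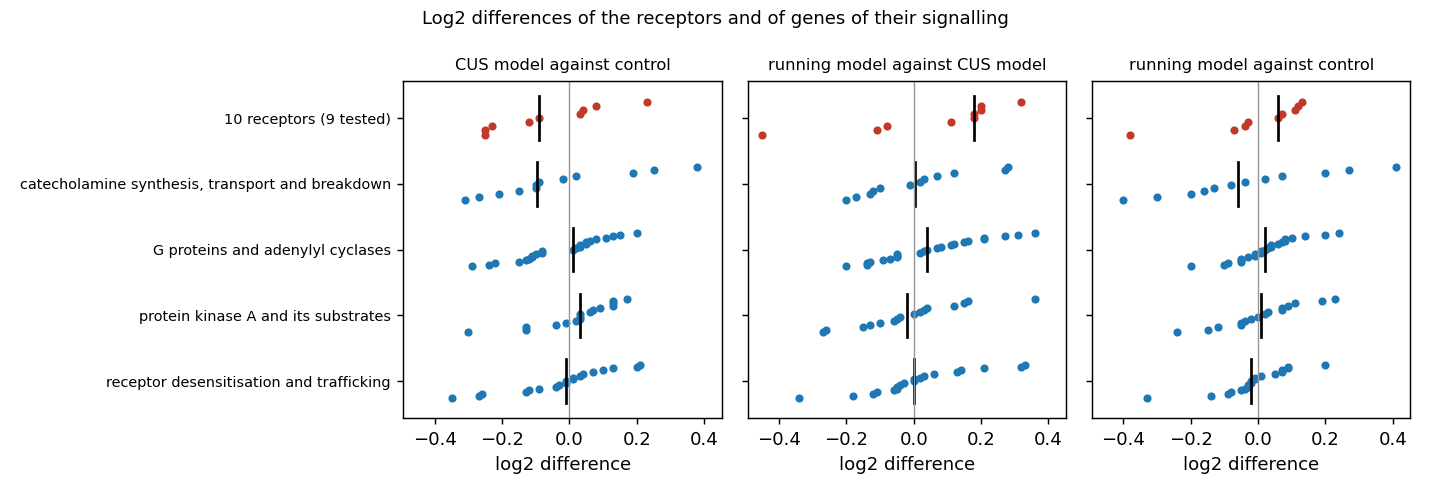
Log2 differences on the log2(FPKM + 0.5) scale for the 9 tested receptors (red) and the tested genes of 4 pathway lists (blue) in the 3 comparisons; points are genes, spread vertically by rank only, and black bars are medians. The receptor median moves from -0.09 for CUS against control to 0.18 for running against CUS, comparisons that share the CUS libraries, while the list medians go from -0.09 to 0.0 for synthesis, transport and breakdown, 0.01 to 0.04 for G proteins, 0.03 to -0.02 for protein kinase A and -0.01 to 0.0 for desensitisation.

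The genomic setting differs between the receptors, and whether it affected the counting was not tested. On GRCm38.p6, Drd1 (chr13:54051183-54055658), Drd5 (chr5:38319509-38322523), Adra2a (chr19:54045259-54048982), Adra2c (chr5:35278566-35281763) and Adrb1 (chr19:56722117-56725150) have their coding sequence in 1 exon. Adra1a (chr14:66635251-66771240), Adra1b (chr11:43774605-43901250) and Adra1d (chr2:131545357-131562497) have 2 coding exons, Drd4 (chr7:141291974-141296464) has 4 and Drd2 (chr9:49340360-49408177) has 7. An antisense gene overlaps Drd5 (Gm26560) and Adra1d (Gm14285) in the GENCODE annotation, and the library protocol does not mark strand. Both antisense genes are listed at 0 in all 9 libraries, and reads of either strand could have been counted to the receptors.

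For 8 members with a mean of at least 1 FPKM, the genes of most similar pattern over the 9 libraries were sought among 12369 genes by Pearson r on the log2(FPKM + 0.5) scale. These are descriptions from 9 points that share libraries and groups, and the highest of many values is high by selection. Up to 3 genes are named for each receptor. Adrb1 was most like Drp2 (0.988), Washc2 (0.972) and Myo5a (0.97), and Adra1a like Fads6 (0.977) and Abca2 (0.958). Adra1b was like Pcsk2 (0.978) and Cdh6 (0.972), and Adra1d most like Scube1 (0.953), St8sia3 (0.927) and Mylip (0.926). For Adra2c they were Wnt7a (0.967), Styx (0.955) and Il10rb (0.948), and for Adra2a Tial1 (0.972), Lats2 (0.951) and Tmem269 (0.931). For Drd1 they were Zfp974 (0.963), Tenm3 (0.954) and Gtf2ird1 (0.927), and for Drd5 Prmt9 (0.919), Zfp759 (0.901) and Lin9 (0.895). None of the genes named here was named for more than 1 receptor.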

How the data were processed

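RNA of the medial prefrontal cortex was measured in 9 libraries. The authors deposited FPKM values, rounded to 2 decimals, in a table of 65389 rows, of which 30264 carry no NCBI gene identifier, are all at 0 and were not used. Build mm10 and the tools RSEM 1.2.12, Bowtie2 2.2.5 and DESeq2 1.4.5 are named, per the submitters' processing notes. What each tool did, and which annotation was used, is not given in the sources used here. Read depth is unknown, so no counting interval was given.

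The 14013 genes that reached 0.5 FPKM in 3 or more libraries were tested on log2(FPKM + 0.5) with limma 3.58.1 in R 4.3.3, with an intensity trend, all 3 groups in one model with 6 residual degrees of freedom, and Benjamini-Hochberg adjustment. A fold change on this scale understates that of low genes. The script was tested on simulated data. All 10 receptors and 3 relatives are named. From each pathway list and comparison the 3 genes of smallest p are named, and for likeness up to 3 genes of highest r, passing over predicted and Y-linked genes. Some genes that these rules pick are not reported here. The members and lists were chosen with earlier results of these data known. Alternatives were other pseudocounts and filters, TPM, quantile normalization, pairs of groups alone, removal of a length and GC trend, and leaving out each library.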

Additional observations from a re-analysis of the deposited data

How the results depend on the processing

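No receptor among the 10 passed the adjusted threshold in any comparison under any of 17 alternatives, and the lowest adjusted p of a receptor was 0.107. The alternatives gave 459 values for the 9 tested receptors, of which 19 had the opposite sign, all for differences of at most 0.2. Rescaling to TPM gave -0.02 for Drd1 and -0.03 for Drd5 in CUS against control, 0.01 for Drd1 in running against CUS and 0.0 for Adrb1 in running against control. Quantile normalization gave 0.0 for Drd1 and removal of the length and GC trend 0.02 for Adrb1, both in running against control. Leaving out each library in turn gave, for CUS against control, -0.05 to 0.18 for Drd1, -0.03 to 0.17 for Drd2 and -0.06 to 0.07 for Drd5. For running against CUS it gave -0.22 to 0.06 for Drd1 and -0.02 to 0.31 for Adra2a. For running against control it gave -0.12 to 0.1 for Drd1, -0.01 to 0.18 for Adra1b and -0.11 to 0.23 for Adra2a. The cause of these changes of sign was not tested. The median of all genes moved from 0.022 to -0.041 under TPM for CUS against control and from -0.033 to 0.062 for running against CUS. Without CUS 2, 1518 genes passed the threshold for running against CUS, none of them a receptor named here. Drd4 was tested only without a filter. No paired analysis was possible because the labels give no replicate numbers that pair libraries. Precision is limited by 3 libraries a group and by the unknown read depth, which matters most for the low Drd2 and Drd4.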

Other observations

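The control, CUS and running libraries of Adrb3 did not overlap, to be read beside the shares of all tested genes given above. Adrb3 lies on chromosome 8 at 27225776 to 27230845. The next RefSeq gene on GRCm38.p6 is Eif4ebp1, a repressor of translation initiation at 27260327 to 27275656. The genes are 29481 bases apart, on opposite strands, with 0 RefSeq genes between them. Eif4ebp1 was at 8.2, 8.57 and 8.01 FPKM in the controls, 10.6, 7.9 and 9.71 in the CUS libraries, and 4.95, 4.93 and 5.82 in the running libraries. All 3 running libraries lay below all 6 others. Its log2 difference was -0.78 ± 0.104 (SE, adjusted p = 0.063) for running against CUS and -0.61 ± 0.104 (adjusted p = 0.075) for running against control, so both missed the limma threshold. For CUS against control it was 0.17 (adjusted p = 0.436), where Adrb3 was at -0.24. Over the 17 alternatives, Adrb3 ran from -0.72 to -0.45 for running against control, with an adjusted p of 0.0821 to 0.389. Eif4ebp1 was chosen after its values were seen, for its position beside Adrb3. An antisense gene, Gm45470, overlaps Adrb3 in GENCODE and is listed at 0 in all 9 libraries.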
